A study of Drosophila melanogaster with 12 samples.

Results

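Contacts between the maternal and the paternal copy of the same locus at the scale of a few nucleosomes were taken from haplotype-resolved Hi-C of PnM cells, a clonal male *Drosophila* line from a cross of a 057 mother with a 439 father. A member is a read pair with its sides on the 057 and the 439 copy of the same arm (2L, 3L or 3R), less than 1 kb apart on the dm3 assembly, and with both sides mapped to the same strand. There were 108252 such pairs among 143354680 deposited pairs, and among 17400944 *trans*-homolog (*thom*) pairs of any separation on these arms. The study holds 8 Hi-C libraries of 4 groups with 2 replicates each. All libraries came from this hybrid of the 057 and 439 haplotypes. The study estimates that a fraction of the cells in each condition has a partial maternal disomy of 3R, and so lacks the 439 copy there. Cells were fixed with 1% formaldehyde for 10 min and cut with DpnII. Untreated cells received no RNAi treatment, mock RNAi cells received deionized water in place of RNA, and Slmb RNAi and TopII RNAi (labelled Top2 RNAi) cells received 30 ug of double-stranded RNA against the gene on days 1 and 3 and were harvested on day 4. PnM is 1 clone. The study's methods call the replicates of the RNAi treatments biological, while for untreated cells the labels do not say whether they were separate cultures, so that their spread may be technical.

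In *Drosophila*, homologous chromosomes lie paired in somatic cells, and paired homologs can regulate each other, a phenomenon known as transvection. Slmb is the substrate-recognizing subunit of an SCF ubiquitin ligase, whose targets include a condensin II subunit, and TopII passes DNA strands through each other. Both are known to promote pairing in cultured fly cells. In Hi-C, a fragment that was sequenced without ligation gives sides that face each other, and a fragment ligated to itself gives sides that face away. Pairs on the same strand come from neither, which is why they can be read at separations under 1 kb. Each side is assigned to a copy by the sequence variants in its read, and a sister copy of the same haplotype cannot be told from the same molecule.

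The libraries held 27811 and 26122 members in untreated cells, 9427 and 10706 in mock RNAi, 8074 and 8113 in Slmb RNAi, and 8844 and 9155 in TopII RNAi. The untreated libraries had the most members, and they were also the deepest, with 37284329 and 38465767 pairs against 10190412 to 12077016 in the other 6. Members made up 1.13% to 1.42% of the same-strand *thom* pairs of a library. They showed no side preference, since 49.2% to 50.3% had both sides on the plus strand, and in 49.4% to 50.6% the 057 side came first along the arm. The mean offset of the 439 side from the 057 side lay between −7.63 and 4.17 bp. The median separation was 564 to 594 bp. Any 2 libraries shared at most 16 members with identical ends, and such members were at most 0.0955% of a library's list.

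The number of members rose steeply over the first 300 bp and changed less beyond. In untreated replicate 1, 917 members were less than 100 bp apart, 2146 were 100 to 200 bp apart and 3095 were 200 to 300 bp apart, and untreated replicate 2 held 780, 1801 and 2778. Set against the mean 100 bp step of 1 to 2 kb in the same library, the first step held 0.272 ± 0.0249 (SD, n = 2) in untreated, 0.214 ± 0.035 in mock RNAi, 0.168 ± 0.0061 in Slmb RNAi and 0.187 ± 0.0308 in TopII RNAi. The steps of 500 bp to 1 kb held between 0.928 and 1.09 of that mean in the 8 libraries. Members joined from 2 linear alignments, as opposed to those rescued from a chimeric read, rose over a longer range in each group. In untreated cells they went from 0.622 ± 0.00659 at 200 to 300 bp to 0.789 ± 0.0157 at 400 to 500 bp and 0.989 ± 0.00993 at 600 to 700 bp. At 200 to 300 bp they held 0.654 in mock RNAi, 0.706 in Slmb RNAi and 0.677 in TopII RNAi. At 600 to 700 bp these were 1.02, 1.01 and 1.00. Beyond 1 kb the frequency of *thom* pairs fell slowly. Relative to 500 bp to 1 kb, pairs per 100 bp stood at 94.9% to 100.5% at 1 to 2 kb, at 79.6% to 90.6% at 2 to 5 kb and at 60.1% to 74.6% at 5 to 10 kb. Same-strand *cis* pairs had fallen further over the same ranges in each library, to between 50.01% and 57.5% at 5 to 10 kb.

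**Figure D1:**
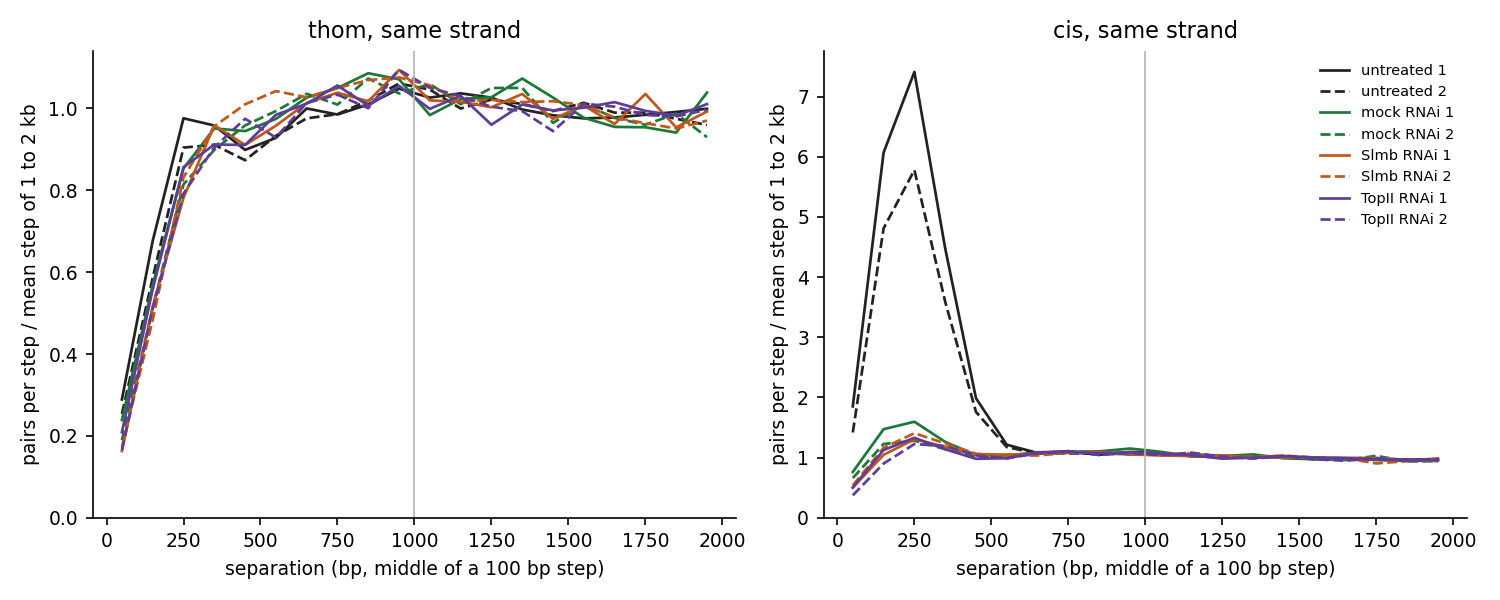
Same-strand pairs per 100 bp step of separation (x axis, bp), divided by the mean step of 1 to 2 kb in the same library (y axis), for *thom* (left) and *cis* pairs (right), 1 line per library. The grey line marks 1 kb. The *thom* lines rise steeply to 300 bp and little beyond in the 8 libraries, while *cis* pairs of the untreated libraries peak at 200 to 300 bp, at 7.41 and 5.78 times their level at 1 to 2 kb.

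Same-strand *cis* pairs, to which the members are compared, showed an excess under 500 bp that was large in the untreated libraries. At 200 to 300 bp they were 6.59 ± 1.15 times (SD, n = 2) the mean step of 1 to 2 kb in untreated cells, but 1.44 ± 0.223 times in mock RNAi, 1.36 ± 0.0713 times in Slmb RNAi and 1.28 ± 0.0736 times in TopII RNAi. The excess consisted mostly of pairs that had been rescued from a chimeric read, that is, a read whose ends align to separate places. Pairs of 2 linear alignments, the rest, were 21.2% and 23.6% of the *cis* pairs under 1 kb in untreated cells, against 61.5% to 70.0% in the other 6 libraries. Members followed the same split to a smaller degree, with 56.3% and 57.1% linear in untreated cells and 77.8% to 81.6% elsewhere. A split was also present at 1 to 10 kb, beyond the excess. There 63.6% and 63.9% of same-strand *thom* pairs were linear in untreated cells, against 83.9% to 86.7% elsewhere. For *cis* pairs at 1 to 10 kb these were 63.8% and 64.1%, against 84.0% to 86.9%. Rescued members at 200 to 300 bp exceeded the mean step of 700 bp to 1 kb by 1.33 to 1.74 times in the 8 libraries, against 4.15 to 17.4 times for rescued *cis* pairs. The share of rescued pairs moved with the condition, and its part in differences between untreated and RNAi libraries was not tested. For this reason the ratio of members to *cis* pairs is given in 3 forms, over all pairs under 1 kb, over pairs of 2 linear alignments, and over all pairs 500 bp to 1 kb apart. The last form was chosen after the excess had been seen.

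Over all pairs, the *thom* to *cis* ratio under 1 kb was 0.167 and 0.191 in untreated cells, or 0.179 ± 0.0171 (SD, n = 2). From pairs of 2 linear alignments it was 0.444 and 0.463, and from pairs 500 bp to 1 kb apart 0.467 and 0.469. The last form had the smallest spread between replicates, 0.00112 (SD, n = 2), and rested on 15764 and 15281 members. At 1 to 10 kb the ratio was 0.576 and 0.577, above that of 500 bp to 1 kb in untreated cells and in each of the other 6 libraries.

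By 100 bp step the ratio was low at short separations and level further out. Over all pairs it was 0.0866 ± 0.00743 (SD, n = 2) under 100 bp in untreated cells, lowest at 100 to 200 bp with 0.0603 ± 0.00314, and rose to 0.403 ± 0.00639 at 500 to 600 bp and 0.507 ± 0.0108 at 900 bp to 1 kb. In mock RNAi it rose from 0.154 ± 0.0078 under 100 bp to 0.494 ± 0.0259 at 500 to 600 bp and 0.491 ± 0.0261 at 900 bp to 1 kb. Among pairs of 2 linear alignments the rise was smaller. It went from 0.307 ± 0.0545 under 100 bp to 0.497 ± 0.0022 at 900 bp to 1 kb in untreated cells, and from 0.416 ± 0.0334 to 0.485 ± 0.0269 in mock RNAi. In TopII RNAi the linear ratio under 100 bp, 0.474 ± 0.00903, was within the spread of that at 900 bp to 1 kb, 0.452 ± 0.0445. Members of 2 linear alignments were themselves scarce at the shortest separations, at 0.0963 to 0.174 of the level of 1 to 2 kb under 100 bp, and *cis* pairs of that type were scarce there as well, at 0.103 to 0.314.

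**Figure D2:**
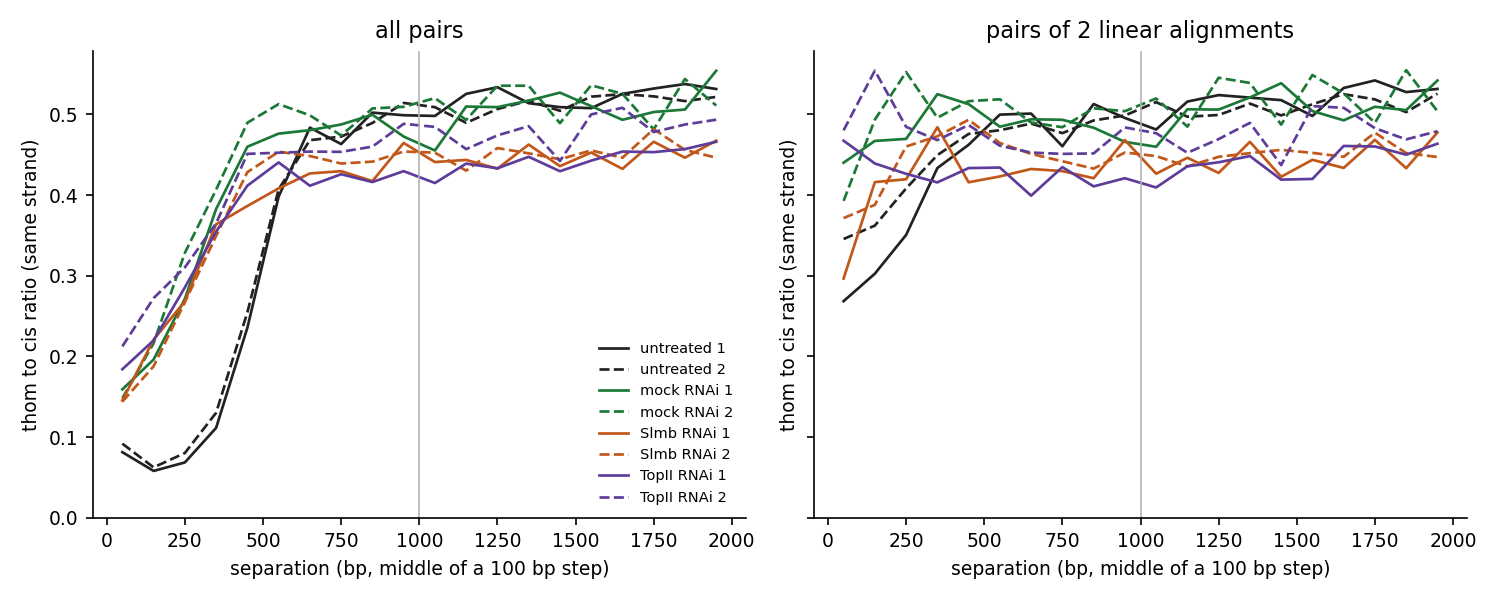
*Thom* to *cis* ratio of same-strand pairs (y axis) in 100 bp steps of separation (x axis, bp), for all pairs (left) and for pairs of 2 linear alignments (right), 1 line per library, with 1 kb marked in grey. Under 500 bp the untreated lines lie far below the others on the left. On the right they are lower than the other 6 at 100 to 200 bp, with 0.303 and 0.362, and at 200 to 300 bp, by less than on the left, and between 600 bp and 1 kb the 8 libraries lie between 0.399 and 0.514 in both panels.

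A share of the members can come from same-strand *cis* pairs with 1 side assigned to the wrong copy. The rate of such misassignment was estimated from unligated fragments. Inward-facing pairs, which hold the unligated fragments, numbered 5495058 and 5497535 in *cis* and 35611 and 34824 in *thom* in the untreated libraries. Taking the excess of inward-facing *thom* pairs over the other orientations as misassigned gave 0.378% and 0.376% of the excess of inward-facing *cis* pairs. Applied to same-strand *cis* pairs, this came to 628 and 513 misassigned members in untreated cells, 2.11% ± 0.209 (SD, n = 2) of the members. In the other 6 libraries it came to 1.14% to 1.43%. The same rate of a library was applied at all separations. On that assumption the share was highest in untreated cells at 100 to 200 bp, with 6.50% and 6.01% of the members of that step. It was below 1.3% from 500 bp on in the 8 libraries. The *thom* to *cis* ratio of inward-facing pairs was not constant, however. In untreated cells it was 0.116 and 0.0984 under 100 bp, and 0.00286 and 0.00274 at 200 to 300 bp. No rate was estimated for each step, so the shares of single steps are uncertain, most of all under 100 bp.

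Both knockdowns were compared with mock RNAi, whose 2 libraries they share. Per the study's methods each RNAi treatment was sequenced in 1 lane, so lane and condition cannot be told apart. In Slmb RNAi the ratio over all pairs was 0.363 and 0.367, below the 0.383 and 0.414 of mock RNAi, with no overlap between the groups. The log2 difference was −0.13 with a pooled SD of 0.0558, and the exact permutation test gave a two-sided p of 0.33, the smallest that 2 against 2 libraries allow (0.50 adjusted over 3 comparisons). Between 500 bp and 1 kb the values were 0.429 and 0.447 in Slmb RNAi against 0.483 and 0.500 in mock RNAi, a log2 difference of −0.17 (exact p = 0.33, adjusted 0.33), and linear pairs gave −0.16. The ratio was lower without overlap in 9 of the 10 steps under 1 kb, while at 1 to 10 kb the same held for 88.9% of the 100 bp steps. At 1 to 10 kb the ratio itself was lower by a log2 difference of −0.16. Divided by the ratio at 1 to 10 kb, the ratio under 1 kb no longer differed in that direction, with a log2 difference of 0.03. Members as a share of the same-strand *thom* pairs at 1 to 10 kb were 12.4% and 13.1% in Slmb RNAi and 13.0% and 12.8% in mock RNAi, and these groups overlap.

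In TopII RNAi the ratio over all pairs was 0.364 and 0.404 and overlapped that of mock RNAi, with a log2 difference of −0.05 and a pooled SD of 0.0932 (exact p = 0.67, adjusted 0.67). The sign turned when 1 library was left out, to 0.02 without TopII RNAi replicate 1 and to 0.0011 without mock RNAi replicate 2. Divided by the ratio at 1 to 10 kb, TopII RNAi was at 0.739 and 0.767 over all pairs, above the 0.685 and 0.732 of mock RNAi, a log2 difference of 0.09. The ratio at 500 bp to 1 kb, divided in the same way, was not higher. It was 0.862 and 0.877 in TopII RNAi against 0.864 and 0.884 in mock RNAi, and these groups overlap. From 500 bp to 1 kb TopII RNAi had 0.424 and 0.462, both below mock RNAi, with a log2 difference of −0.15 (exact p = 0.33, adjusted 0.33), and linear pairs gave −0.15 too. By step, TopII RNAi was lower without overlap in 6 of 10 steps, against 73.3% of the steps at 1 to 10 kb. It was higher without overlap in 2 of 10 steps, both under 200 bp, against 0% at 1 to 10 kb. Under 100 bp its ratio was 0.184 and 0.213, against 0.159 and 0.148 in mock RNAi. Linear pairs under 100 bp gave 0.467 and 0.480 against 0.440 and 0.393, on 97 to 158 members of that type a library. At 100 to 200 bp the linear values overlapped, with 0.439 and 0.554 in TopII RNAi against 0.467 and 0.493 in mock RNAi. Members of both types under 100 bp stood at 0.187 ± 0.0308 (SD, n = 2) of their level at 1 to 2 kb in TopII RNAi. In mock RNAi they stood at 0.214 ± 0.035. Same-strand *cis* pairs under 100 bp stood at 0.439 ± 0.0913 in TopII RNAi and 0.711 ± 0.0717 in mock RNAi. At 100 to 200 bp members stood at 0.535 ± 0.0334 against 0.541 ± 0.0393, and *cis* pairs at 1.01 ± 0.158 against 1.35 ± 0.174. The replicates of TopII RNAi stood apart by more than those of Slmb RNAi in each form of the ratio.

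**Figure D3:**
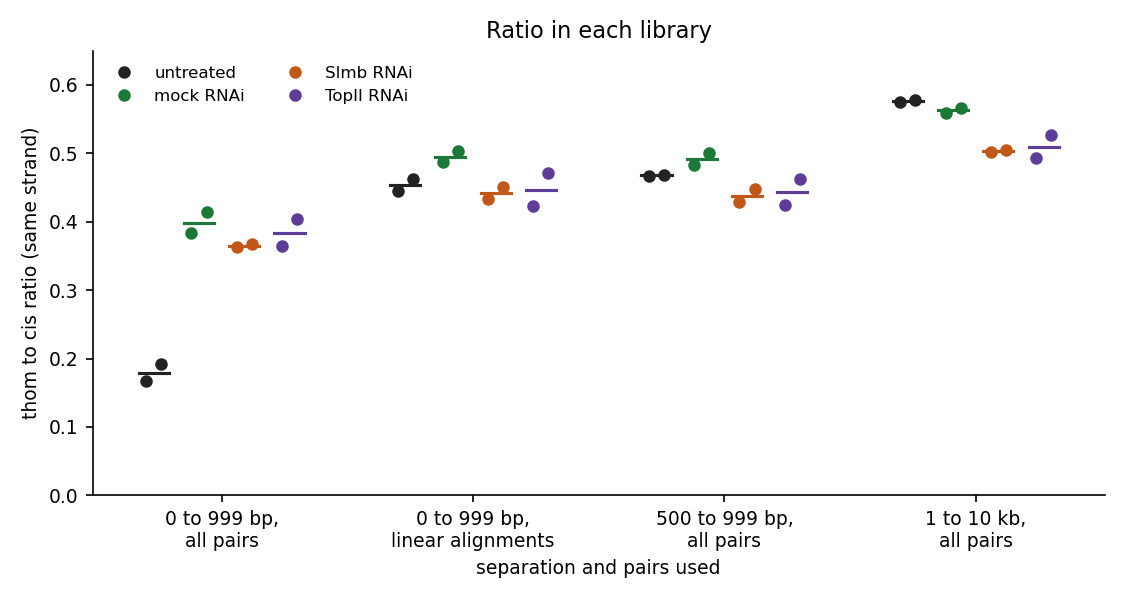
*Thom* to *cis* ratio of same-strand pairs (y axis) for the 4 choices of separation and pairs on the x axis. Each point is a library and each bar the mean of the 2 replicates of a group. Untreated cells stand at 0.179 when all pairs under 1 kb are used and at 0.468 when only 500 bp to 1 kb are used, and Slmb RNAi lies below mock RNAi in the 4 columns.

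Mock RNAi differed most from untreated cells when all pairs were counted. Its ratio was 2.23 times as high, a log2 difference of 1.16 against a pooled SD of 0.112 (exact p = 0.33, adjusted 0.50). Most of this lay at the separations of the *cis* excess. The log2 difference was 2.01 at 200 to 300 bp and 0.04 at 600 to 700 bp, and 7 of 10 steps were higher without overlap, against 5.56% of the steps at 1 to 10 kb. Over linear pairs the log2 difference was 0.13, and 6 of 10 steps, those under 500 bp among them, were higher without overlap, by up to 0.54 on the log2 scale, against 10% of the linear steps at 1 to 10 kb. At 100 to 200 bp linear *cis* pairs stood at 0.753 ± 0.149 (SD, n = 2) of their level at 1 to 2 kb in untreated cells and 0.475 ± 0.0399 in mock RNAi. Linear members stood at 0.480 ± 0.0291 and 0.444 ± 0.027. Over pairs 500 bp to 1 kb apart the log2 difference of the ratio was 0.07, with 0.483 and 0.500 against 0.467 and 0.469. At 1 to 10 kb mock RNAi was lower than untreated, by a log2 difference of −0.04. With each library thinned to the depth of the shallowest the log2 difference over all pairs was 1.16 as well. The untreated and the RNAi libraries also differ in sequencing lanes and share of rescued pairs, and these cannot be told apart from the treatment.

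Along the arms, members were widespread but uneven. Of 757 windows of 100 kb, 48 held no member in any library, and windows were described further where each untreated replicate had at least 50 same-strand *cis* pairs under 1 kb, which left 672. In these, untreated replicate 1 had a median of 35.5 members (10th to 90th percentile 13 to 77.9, highest 161). The ratio of the pooled untreated libraries had a 10th percentile of 0.0871, a median of 0.169 and a 90th percentile of 0.262, a span of 1.59 on the log2 scale. The replicates ranked windows alike, with Spearman's rho of 0.77 and Pearson's r of 0.77 over the 672 windows. Windows share a library and its depth, so these describe the 2 libraries and carry no p. Pooled replicates of any 2 conditions gave rho between 0.65 and 0.74 over the same windows, the highest for untreated and mock RNAi. With pairs 500 bp to 1 kb apart these were lower, between 0.50 and 0.63.

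Windows with a high ratio under 1 kb also had a high ratio at 1 to 10 kb, with rho of 0.83 over all pairs and 0.81 when the shorter range was 500 bp to 1 kb. Within single arms the latter rho was lower, at 0.77 on 2L, 0.70 on 3L and 0.63 on 3R. The pairs in the 2 ranges are separate, but share the window, its variants and its library. Ratios from 500 bp to 1 kb had a 10th percentile of 0.245, a median of 0.442 and a 90th percentile of 0.668, and the agreement of replicates was lower, at rho of 0.53.

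**Figure D4:**
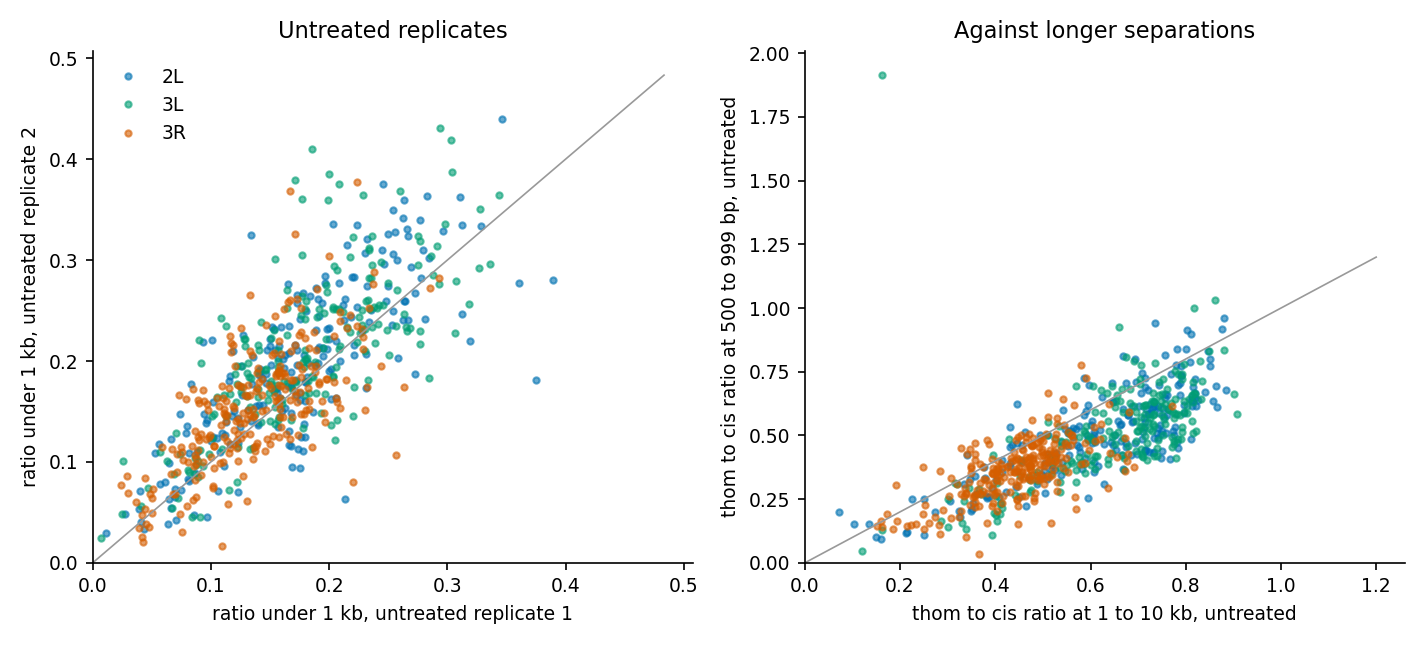
The 672 windows of 100 kb, coloured by arm. The left panel plots the *thom* to *cis* ratio under 1 kb in untreated replicate 1 (x axis) against replicate 2 (y axis), and the right panel plots the ratio at 1 to 10 kb (x axis) against that at 500 bp to 1 kb (y axis) for the pooled untreated libraries. Grey lines mark equality. The median window of 3R is at 0.147 under 1 kb, against 0.179 on 2L and 0.187 on 3L, and the point at 1.91 on the right is the window on 3L with a recurrent end.

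Windows at the extremes were picked from untreated replicate 1, as the 2 highest and 2 lowest of each arm, so that only the other libraries bear on them. In untreated replicate 2 the 6 lowest were all below the median window of their arm, and 5 of the 6 highest were above it. The highest of 2L, 19400001 to 19500000 (dm3), had a ratio of 0.390 in replicate 1 and 0.280 in replicate 2 (95% Wilson interval 0.193 to 0.406, counting error only), and was above the arm median in 7 of 7 other libraries. The highest of 3L, 1800001 to 1900000, had 131 members at 0.344 in replicate 1 and 117 members at 0.364 in replicate 2 (0.295 to 0.450), and it too was above the median in 7 of 7. On 3R, 4800001 to 4900000 was at 0.285 and 0.273 (0.194 to 0.383) and above the median in 7 of 7, while 6200001 to 6300000, at 0.293 and 0.282, was so in 5 of 7. The windows 19700001 to 19800000 of 2L and 16700001 to 16800000 of 3L kept their side in 4 and 5 of 7. The former fell from 0.375 in replicate 1 to 0.181 in replicate 2.

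Among the lowest were 2 neighbours on 2L, 17000001 to 17100000 and 17100001 to 17200000. The first had 2 members against 173 *cis* pairs in replicate 1 and 5 against 167 in replicate 2, a ratio of 0.0299 there (0.0126 to 0.0709), and the second had 3 and 4 members, with 0.0488 in replicate 2. On 3L, 11300001 to 11400000 had 2 members against 300 *cis* pairs in replicate 1 and 6 against 239 in replicate 2, a ratio of 0.0251 (0.0114 to 0.0553), and lay below the arm median in 7 of 7 other libraries, as did 13700001 to 13800000. On 3R, 10800001 to 10900000 was at 0.0769 in replicate 2 (0.0395 to 0.150) and below the median in 7 of 7, and 3500001 to 3600000 at 0.0864 in 5 of 7. The low windows were low at longer separations as well. In the pooled untreated libraries the 6 had ratios of 0.121 to 0.301 at 1 to 10 kb, against 0.622 to 0.851 for the 6 highest. No gene annotation of dm3 was used, so the windows are given without the genes in them.

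Members were scarce at the centromere end of 2L in each group. The last 1 Mb of 2L had 158 members in the untreated libraries and a ratio of 0.0867 ± 0.00342 (SD, n = 2), against 0.195 ± 0.02 between the ends of the arm and 0.200 ± 0.0198 in its first 1 Mb, the telomere end. Between 500 bp and 1 kb the values were 0.247 ± 0.0373, 0.532 ± 0.0102 and 0.508 ± 0.0271. Longer separations showed the same dip, with 0.293 ± 0.0198 in the last 1 Mb and 0.653 ± 0.00423 between the ends at 1 to 10 kb. Under 1 kb the last 1 Mb was at 0.148 ± 0.0171 in mock RNAi, 0.115 ± 0.0227 in Slmb RNAi and 0.233 ± 0.0388 in TopII RNAi, on 31 to 60 members a group, against 0.461 ± 0.0319, 0.431 ± 0.00783 and 0.448 ± 0.0258 between the ends. The last 1 Mb of 3L and the first 1 Mb of 3R held no member in the 8 libraries, but also at most 11 same-strand *cis* pairs under 1 kb in the 2 untreated libraries together, so no ratio can be read there.

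The arms differed. Over all pairs the ratio in untreated cells was 0.193 ± 0.0196 (SD, n = 2) on 2L, 0.197 ± 0.02 on 3L and 0.150 ± 0.0124 on 3R, and 3R was lowest in 8 of 8 libraries. From 500 bp to 1 kb it was 0.527 ± 0.00795, 0.518 ± 0.00872 and 0.372 ± 0.01. On 3R the 057 copy gave more *cis* pairs than the 439 copy. The quotient of 057 over 439 at 500 bp to 1 kb was 1.84 ± 0.0165 in untreated, 2.12 ± 0.0504 in mock RNAi, 2.16 ± 0.032 in Slmb RNAi and 2.08 ± 0.225 in TopII RNAi, whereas on 2L and 3L it lay between 0.955 and 1.07 in the 8 libraries. Inward-facing *cis* pairs, most of which are unligated fragments, had a quotient of 1.38 to 1.55 on 3R and 0.991 to 1.02 on 2L and 3L.

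Per *cis* pair of the 439 copy, members at 500 bp to 1 kb were about as frequent on 3R as elsewhere in untreated and mock RNAi cells. In untreated cells there were 1.06 ± 0.0223 on 3R, 1.06 ± 0.0299 on 2L and 1.04 ± 0.024 on 3L, and the ranges of the replicates overlap. Per *cis* pair of the 057 copy there were 0.574 ± 0.0173 on 3R against 1.05 ± 0.00222 on 2L and 1.04 ± 0.0109 on 3L. The same contrast held in mock RNAi, with 1.16 ± 0.0378 and 0.545 ± 0.00487 on 3R for 439 and 057. In Slmb RNAi members per *cis* pair of the 439 copy were 0.988 ± 0.0369 on 3R, 1.02 ± 0.0228 on 2L and 1.04 ± 0.0856 on 3L. In TopII RNAi they were 0.963 ± 0.0735 on 3R, 1.05 ± 0.0574 on 2L and 1.05 ± 0.0131 on 3L, and 3R lay below 3L without overlap. The shift of the *cis* quotient along 3R was placed at 3.2 Mb in untreated cells, as the split of the arm that left the least spread within its 2 sides. Before it the quotient at 1 to 10 kb was 1.04 ± 0.0465 and the ratio of members at 500 bp to 1 kb 0.478 ± 0.0255, and after it 1.93 ± 0.00626 and 0.370 ± 0.0098. The part before it held 186 and 187 members under 1 kb in untreated cells. In mock, Slmb and TopII RNAi the quotient before 3.2 Mb was 1.22 ± 0.12, 1.37 ± 0.125 and 1.26 ± 0.123. After 3.2 Mb it was 2.18 ± 0.008, 2.28 ± 0.0276 and 2.15 ± 0.167. The study places the start of the partial maternal disomy of 3R at about the same position. The part of this disomy in the values of 3R was not tested.

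**Figure D5:**
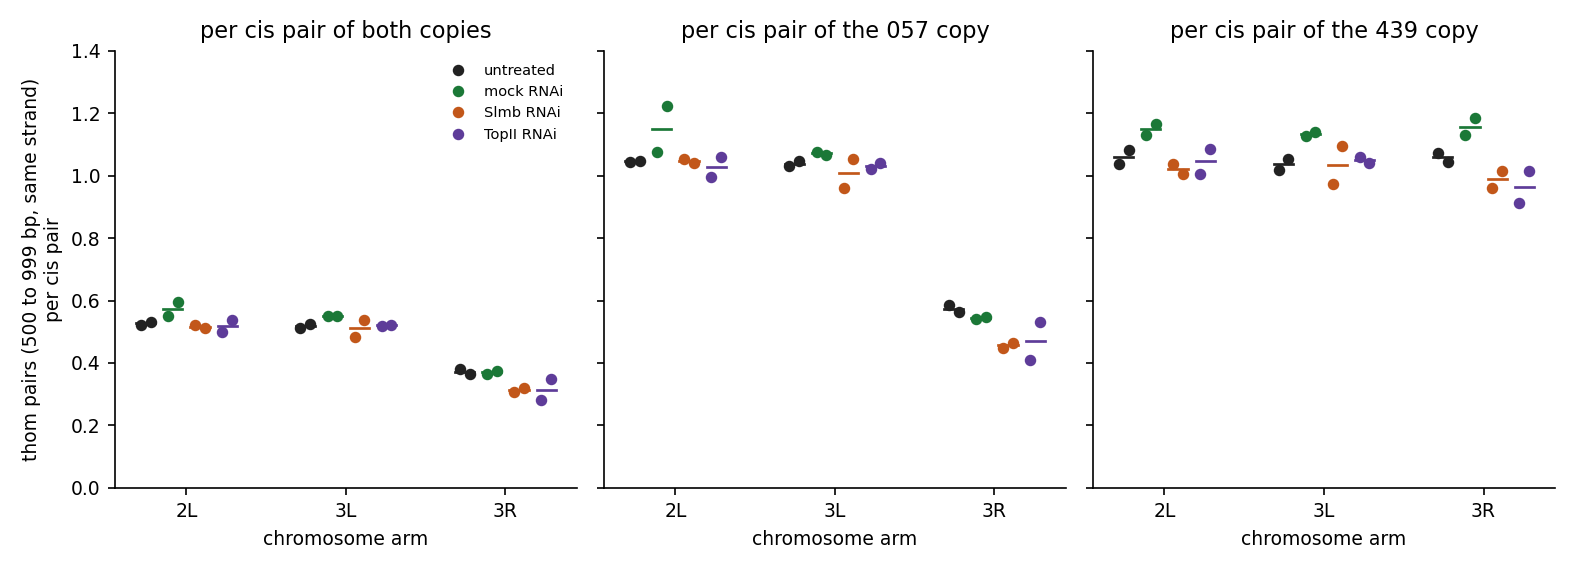
*Thom* pairs 500 bp to 1 kb apart on the same strand, per *cis* pair of both copies (left), of the 057 copy (middle) and of the 439 copy (right), on the y axis, by chromosome arm on the x axis. Points are libraries and bars the means of 2 replicates. 3R is lowest on the left and in the middle, where untreated cells are at 0.372 and 0.574, and close to 2L and 3L on the right.

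Single bins of 1 kb rarely held more than a few members. In untreated replicate 1, 15470 bins held any, 9103 of them held 1, and 729 held 5 or more. The fullest bin of 2L, 6328001 to 6329000, held 13 members in untreated replicate 1 and 8 in replicate 2, and that of 3R, 19181001 to 19182000, held 14 and 7. On 3L the bin 18238001 to 18239000 stood apart, with 36 and 35 members in untreated, 15 and 16 in mock RNAi, 12 and 18 in Slmb RNAi and 20 and 15 in TopII RNAi, and with at most 1 same-strand *cis* pair in any library. In untreated replicate 1, 35 of the 36 shared their left end, base 18238927 of the 439 copy on the plus strand, joined to 35 different right ends on the 057 copy between 18239396 and 18239646, the nearest of them 4 bp apart. The same base was the shared end in the 8 libraries, for 12 to 35 members each. Of these members, 100% and 93.8% were rescued from a chimeric read in the untreated libraries, against 13.3% to 38.9% elsewhere. Such recurrent ends were otherwise almost absent. Ends used by 5 or more members numbered 1 in 7 libraries and 2 in untreated replicate 2, and their members were 0.126% to 0.226% of the total. In the 100 kb window around it, 18200001 to 18300000, the pooled untreated ratio was 0.231 with these members and 0.0489 without them, and at 500 bp to 1 kb 1.91 and 0.400.

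Windows were also compared between conditions with limma (Benjamini-Hochberg adjusted p under 0.05), on the log2 ratio under 1 kb of windows with a mean of at least 5 members a library. Between mock RNAi and untreated, 417 of 664 windows (62.8% called) had a higher ratio and 0 a lower one, with a median log2 difference of 1.13, the shift of the whole library described above. Relative to that shift, with each library centred on its median, 0 windows were called, and 38 had an unadjusted p under 0.05, 19 in each direction. Without untreated replicate 1 the count fell to 0 of 645, with 219 at an unadjusted p under 0.05, and without untreated replicate 2 to 136 of 656. With pairs 500 bp to 1 kb apart, 0 of 603 windows (0% called) differed, with 28 at an unadjusted p under 0.05.

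The 3 windows with the smallest p had log2 differences of 2.06, 2.28 and 2.26, above that of the median window, though none was called once libraries were centred. On 3L, 19000001 to 19100000 had ratios of 0.179 and 0.167 in untreated and 0.769 and 0.682 in mock RNAi (limma adjusted p = 0.00925), with no overlap. On 3L, 3700001 to 3800000 had 0.113 and 0.145 against 0.645 and 0.605, and on 2L, 20200001 to 20300000 had 0.168 and 0.116 against 0.615 and 0.733. These windows were picked for their p in the same 4 libraries, so their values are a description.

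For the knockdowns limma called 0 of 563 windows in Slmb RNAi (0% called) and 0 of 575 in TopII RNAi (0% called) against mock RNAi. At an unadjusted p under 0.05 there were 21 windows in Slmb RNAi, 10 higher and 11 lower, and 23 in TopII RNAi, 9 higher and 14 lower. The median window differed by −0.14 in Slmb RNAi and −0.07 in TopII RNAi on the log2 scale, and 347 of 563 and 332 of 575 windows were lower than in mock RNAi. The median SE of a window was 0.45 and 0.47, so a change of the size seen for whole libraries was not detectable in a single window at this depth. With pairs 500 bp to 1 kb apart, 0 of 438 and 0 of 439 windows were called (0% called in both), with 13 and 25 at an unadjusted p under 0.05.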

How the data were processed

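Per the file headers and the study's methods, the authors aligned reads with bwa 0.7.15-r1140 against both parental haplotypes of dm3 at once, called pairs using pairsamtools 0.0.1-dev, and kept unique pairs of linear or rescued chimeric alignments. The lists deposited by the authors hold, for each side, its coordinate, its strand and a score for mapping quality, without normalization, for 8 Hi-C libraries of 10190412 to 38465767 pairs. The 4 RNA-seq samples were not used here. The median lower score of a member was 21, and members were not filtered by it.

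Same-strand pairs under 1 kb were counted here with Python 3.11.15, numpy 2.4.6, pandas 2.3.3 and scipy 1.17.1, and windows of 100 kb, placed by the left side, were tested with limma 3.58.1 in R 4.3.3 on log2 of the counts plus 0.5. Window testing was checked first on simulated counts. Values given once per library were compared by exact permutation, with p adjusted over 3 comparisons. Named windows are the 2 highest and 2 lowest of each arm in untreated replicate 1, the fullest 1 kb bin of each arm, and up to 3 called windows in each direction. The members and lists were chosen with earlier results of these data known. Alternatives were pair orientation, separation, arms, *cis* homolog mean, mapping score, pair type, depth, window size, pseudocount, filters, a replicate block and leaving out each library.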

Additional observations from a re-analysis of the deposited data

How the results depend on the processing

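The untreated ratio of 0.179 was 0.250 with outward-facing pairs added, 0.454 with linear alignments alone and 0.468 at 500 bp to 1 kb, and 0.167 and 0.191 with 1 replicate left out. Divided by the ratio at 1 to 10 kb, the log2 differences from mock RNAi over all pairs turned to 0.0347 in Slmb RNAi and 0.0892 in TopII RNAi. Leaving out 1 library gave −0.18 to −0.07 in Slmb RNAi, −0.13 to 0.0211 in TopII RNAi, with 0.0011 without mock RNAi replicate 2, and 1.06 to 1.25 in mock RNAi against untreated. The replicate block left these differences at −0.13, −0.05 and 1.16 (smallest exact p 0.50). Deviations of same-numbered libraries correlated at −0.01 to 0.07 over 635 windows, so the numbers were not read as pairs, and the block called 396, 0 and 0 windows. Of windows that differed between mock RNAi and untreated, 417 became 71 of 71 windows of 1 Mb, 0 at 500 bp to 1 kb and 0 after centring, and 0 to 500 with 1 library left out. For Slmb RNAi, 1 window of 1 Mb was called, and leaving out a library gave 0 to 2 windows, and 0 to 1 for TopII RNAi. Where a group was left with 1 library, it was assumed to vary like the other. The log2 span of windows, 1.59, was 0.63 at 1 Mb, 1.54 with at least 100 *cis* pairs, 1.47 with outward-facing pairs, 1.45 at 500 bp to 1 kb and 1.51 for linear alignments. The agreement of replicates, 0.77, was 0.89, 0.82, 0.53 and 0.53 at 1 Mb, with outward-facing pairs, at 500 bp to 1 kb and for linear alignments. The relation to 1 to 10 kb, 0.83, was 0.91, 0.86, 0.81 and 0.82 in that order. The settings 500 bp to 1 kb, centring and linear alignments for windows were chosen after seeing the data. The causes of these shifts were not tested.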

Other observations

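Pairs whose sides face outward are not members. Their *thom* to *cis* ratio exceeded 1 at 100 to 200 bp in 5 of 8 libraries, with 1.21 and 1.19 in untreated, 1.14 and 1.18 in mock RNAi, 0.828 and 0.977 in Slmb RNAi, and 0.850 and 1.12 in TopII RNAi. At 900 bp to 1 kb the same ratio was 0.462 to 0.618 over the 8 libraries.

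At the shortest separations, 0 to 10 bp, same-strand *cis* pairs numbered 939 and 731 in the untreated libraries and fell to 50 and 48 at 10 to 20 bp. Members numbered 67 and 42 and then 54 and 33 in these ranges.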
